A study of Saccharomyces cerevisiae W303 with 86 samples.

Results

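The small (40S) subunit of the cytosolic ribosome of the budding yeast Saccharomyces cerevisiae was described through its protein genes, taken as every row whose standard name is RPS, digits and an optional A or B. The systematic identifiers were matched to RefSeq gene symbols of assembly R64, which gave 56 genes among 7126 features. They encode 32 proteins. For 24 proteins there is a pair of paralogs named A and B, and the other 8 come from 1 gene each, among them RPS2, RPS3, RPS12, RPS13, RPS15, RPS20 and RPS31. All 56 genes passed the filter on low values in every set.

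The study measured how cells respond to loss of oxidative phosphorylation (OXPHOS), and 86 libraries in 29 groups fall into 7 sets, each with its own control. All cells carried the label W303-1A, a haploid laboratory strain, and were grown in synthetic medium with 2% glucose to an OD of 0.5 to 0.8. The OXPHOS set held r0 cells, which lack mitochondrial DNA, the deletion strains atp7D (ATP synthase), cox9D (complex IV) and cor1D (complex III), and WT. The PUF3 set held r0 puf3D, r0, atp7D puf3D, atp7D, puf3D and WT. PUF3 encodes an RNA-binding protein that acts on mRNAs for mitochondrial proteins. The Puf3-15A set held r0 puf3-15A, r0, puf3-15A and WT, where the puf3-15A allele serves, per the design text, to block hyperphosphorylation of Puf3. The SNF1 set held snf1D with ethidium bromide (EB), WT with EB, snf1D and WT. EB at 25 µg/ml for 48 h removes mitochondrial DNA, so these cells stand for r0 cells, yet they also carry the drug. SNF1 encodes the yeast AMP-activated kinase. The MIG1 set compared snf1D mig1D with snf1D, both under the same EB treatment, where MIG1 encodes a glucose repressor. The INH1 set held r0 CUP1p-INH1 with 10 mM CuSO4 for 12 h, r0 CUP1p-INH1, r0 and WT. INH1 encodes an inhibitor of the mitochondrial ATPase, driven here by the copper-inducible CUP1 promoter. No copper-treated group without the construct was among the samples, so copper and INH1 cannot be told apart. The footprint set held ribosome-protected fragments of r0 puf3D, r0, puf3D and WT, taken after 100 µg/ml cycloheximide for 2 min. Each mRNA group had 3 libraries (6 for WT of the OXPHOS set) and each footprint group had 2.

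The small subunit binds the mRNA and holds the decoding centre, where codons meet tRNA anticodons. Its head carries proteins such as uS3 (Rps3) and eS31 (Rps31), and its body and platform carry proteins such as uS4 (Rps9), uS12 (Rps23) and uS11 (Rps14). In yeast the ribosomal protein genes are transcribed together through Rap1, Fhl1, Ifh1, Sfp1 and Hmo1 under control of the TOR and PKA pathways, and they are known to be turned down under stress. A whole-genome duplication left most of them as paralog pairs with identical or almost identical products, and several members limit their own mRNA: Rps9 and Rps14 act on splicing of RPS9A and RPS14B, Rnt1 cleaves within the intron of RPS22B, and Rps28 speeds decay of the RPS28B mRNA through Edc3.

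Some facts of the libraries bear on every value. RPKM is the number of reads scaled to gene length and to the size of the library, so each value is a share of that library, and fewer cells, or less RNA per cell, cannot be told apart. The recovered library totals were 8622303 to 14403034 reads in 5 mRNA sets, 18807524 to 71107866 reads in the MIG1 set and 1149911 to 2983582 reads in the footprint set. The smallest value of a member in any mRNA library rested on 235 reads (RPS22B, SNF1 set), which gives a counting error of 6.52%. Deleted genes had 0 to 1.77 RPKM where deleted, against 18.8 to 708 RPKM elsewhere. The summed RPKM of 8 mitochondrially encoded genes was 0 to 0.784 in the r0 and EB libraries, against 5.62 to 71.5 in the others. Markers of mating type differed between groups that share the strain label of an a-type haploid. The sum of 7 genes that mark a cells was 16.8 to 42.3 RPKM in the footprint WT, SNF1 snf1D, SNF1 snf1D EB, both MIG1 groups and the INH1 WT, against 566 to 3046 RPKM in the other 23 groups. The sum of the alpha cell markers was 3.87 to 61.8 RPKM in all 29 groups. In the comparisons of snf1D with its SNF1-carrying control, of r0 with WT in the INH1 set, and of footprints of r0 or puf3D with footprints of WT, the genotype and this difference cannot be told apart. In the PUF3 set the sum was 2529 to 2787 RPKM in r0 and 566 to 831 RPKM in WT, so WT of that set also stood apart. Reads of near-identical paralogs are another limit, because how reads that map to both genes were counted is not given in the sources used here. For the same genotype, snf1D with EB, the genes of 4 pairs, RPS4, RPS6 and RPS24 among them, had RPKM values 0.09 log2 units lower to 1.42 higher in the MIG1 set than in the SNF1 set, whereas the other 48 members were 0.12 to 0.89 log2 units lower. The median of 4762 genes was 0.50 log2 units lower in the MIG1 set. Relative to that median RPS24A was 0.41 higher, and RPS22B, RPS14B and RPS28B were 0.38, 0.34 and 0.32 higher. The values of both genes of the 4 pairs are therefore uncertain. RPS22B, RPS14B and RPS28B also differed between these sets, and sets are compared here only through their own controls.

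In WT of the OXPHOS set the small-subunit genes together took 11.1% to 11.5% of the summed RPKM. Single genes differed 11.3-fold in their mean level, between 498 RPKM for RPS14B and 5643 RPKM for RPS31, which encodes the fusion of ubiquitin to eS31. When the paralogs were added, the 32 protein totals differed only 3.59-fold, between 1734 RPKM for RPS6 and 6232 RPKM for RPS26. The coefficient of variation was 25.3% over protein totals and 49.0% over genes. The median of the 24 paired totals was 3785 RPKM and that of the 8 single genes was 3933 RPKM, while the median gene of a pair had 1916 RPKM. RPS6, at 1734 RPKM, had the lowest total and belongs to the pairs whose read numbers are uncertain.

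**Figure D1:**
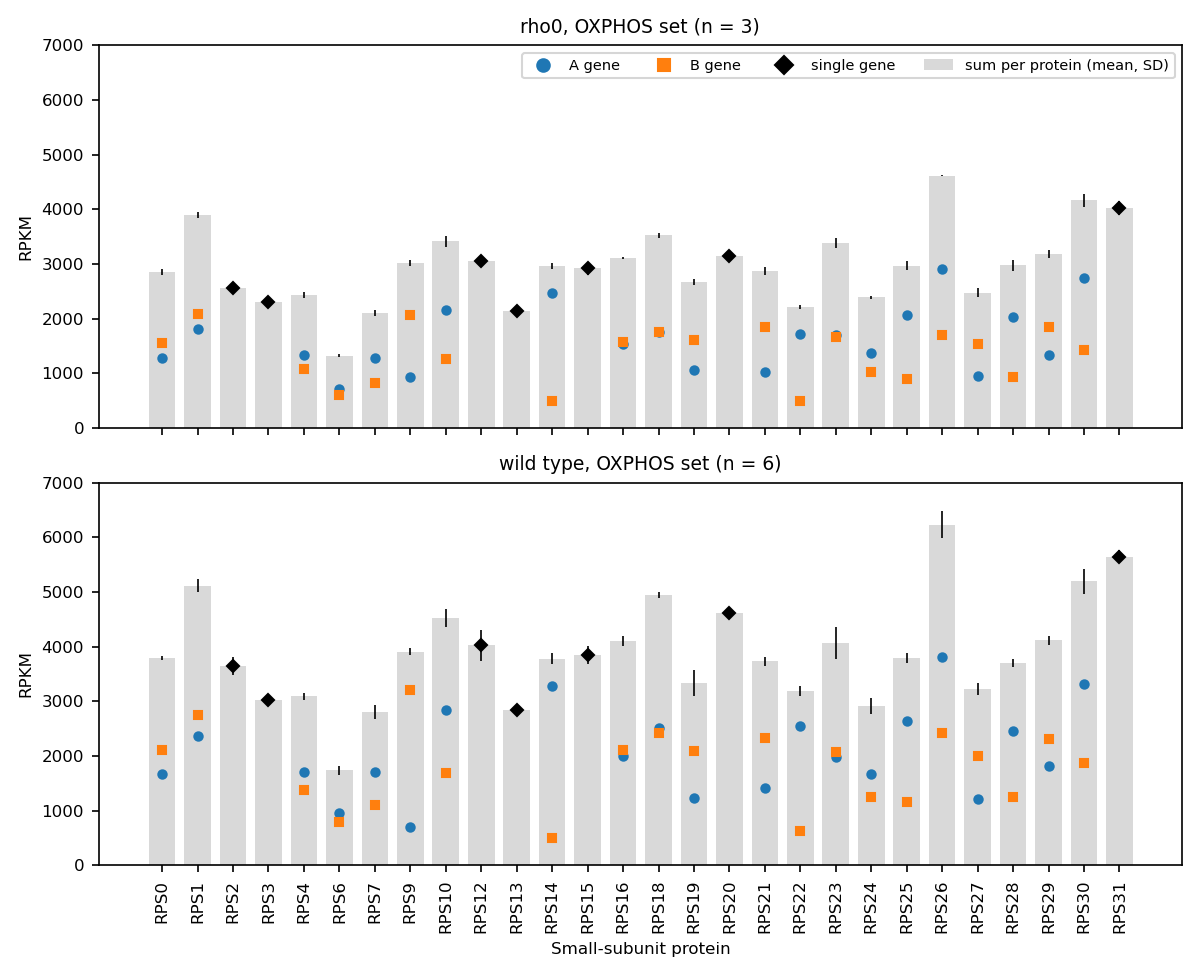
Summed RPKM of 28 small-subunit proteins (grey bars, paralogs added, mean with SD) and of each gene (points, mean), for r0 above and WT below in the OXPHOS set. Single-copy genes lie within the range of the pairs, RPS6 is lowest at 1734 RPKM in WT and RPS26 highest at 6232 RPKM in WT, and every total shown is lower in r0.

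The pairs were split unevenly. In WT of the OXPHOS set the A gene gave more than 50% of the pair's RPKM in 14 pairs and less in 10. In 12 pairs its share lay between 40% and 60%, and in 3 pairs 1 gene gave more than 80%. The extremes were RPS9, where the A gene (YPL081W, chromosome XVI, 404950 to 406044) gave 17.7% and the B gene (YBR189W, chromosome II, 604508 to 605508) the rest, and RPS14, where the A gene (YCR031C, chromosome III, 177500 to 178220) gave 86.8%. In the RPS22 pair the A gene (YJL190C, chromosome X, 74910 to 75302) gave 80.2%, and the B gene is YLR367W (chromosome XII, 856442 to 857317). RPS14B (YJL191W, chromosome X, 73787 to 74611) and RPS22A are neighbours on opposite strands in the RefSeq R64 annotation, from which these coordinates are taken, and their annotated spans do not overlap. The minor genes RPS9A, RPS14B and RPS22B are among 36 of 56 members with an annotated span longer than the length recovered from their RPKM. This is taken as an intron in the span.

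In cells without mitochondrial DNA nearly all members had lower values. In the OXPHOS set 54 of 56 genes fell in r0 and 1 rose, and the median change was -0.46 on the log2 scale, against a median close to 0 for all genes (limma with Benjamini-Hochberg adjustment over 6757 genes, threshold 0.05). Of all genes tested, 23.6% fell and 25.1% rose, so the members' share lay far above the background. Their summed share of RPKM was 8.66% to 8.82% in r0 and 11.1% to 11.5% in WT. The 81 genes of the large subunit had the same median, -0.46, with 77 lower and 1 higher. Head proteins (22 genes, 22 lower) and body and platform proteins (34 genes, 32 lower) had medians of -0.46 and -0.45. RPS2, which lies at the mRNA entry channel, was at 2581, 2627 and 2486 RPKM in r0, against a lowest, median and highest value of 3396, 3684 and 3789 RPKM in the 6 WT libraries. RPS3 of the head, at the same entry site, was at 2255, 2328 and 2352 RPKM in r0, against 2835, 3028 and 3156 RPKM in WT. All r0 libraries lay below all WT libraries for both genes, with log2 changes of -0.58 (SE 0.05) and -0.45 (SE 0.04).

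Other single-copy genes were lower as well. RPS12 of the head had 2953, 3168 and 3057 RPKM in r0, against 3481, 4096 and 4267 RPKM in WT, where library 1 gave the lowest value. RPS13 of the body had 2106, 2131 and 2166 RPKM in r0, against 2807, 2842 and 2929 RPKM in WT. For both genes the r0 and WT groups did not overlap. RPS15 of the head had 2837, 2879 and 3049 RPKM in r0, against 3662, 3823 and 4138 RPKM in WT. RPS20, also of the head, had 3123, 3173 and 3133 RPKM in r0, against 4481, 4604 and 4739 RPKM in WT. RPS31 had 3894, 4138 and 4070.0 RPKM in r0, against 5429, 5664 and 5763 RPKM in WT. The groups were apart for these genes too. Each of the 8 single-copy members was called lower (median change -0.51), and RPS20 fell most at -0.62 (SE 0.03, limma adjusted p = 2.85e-10).

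**Figure D2:**
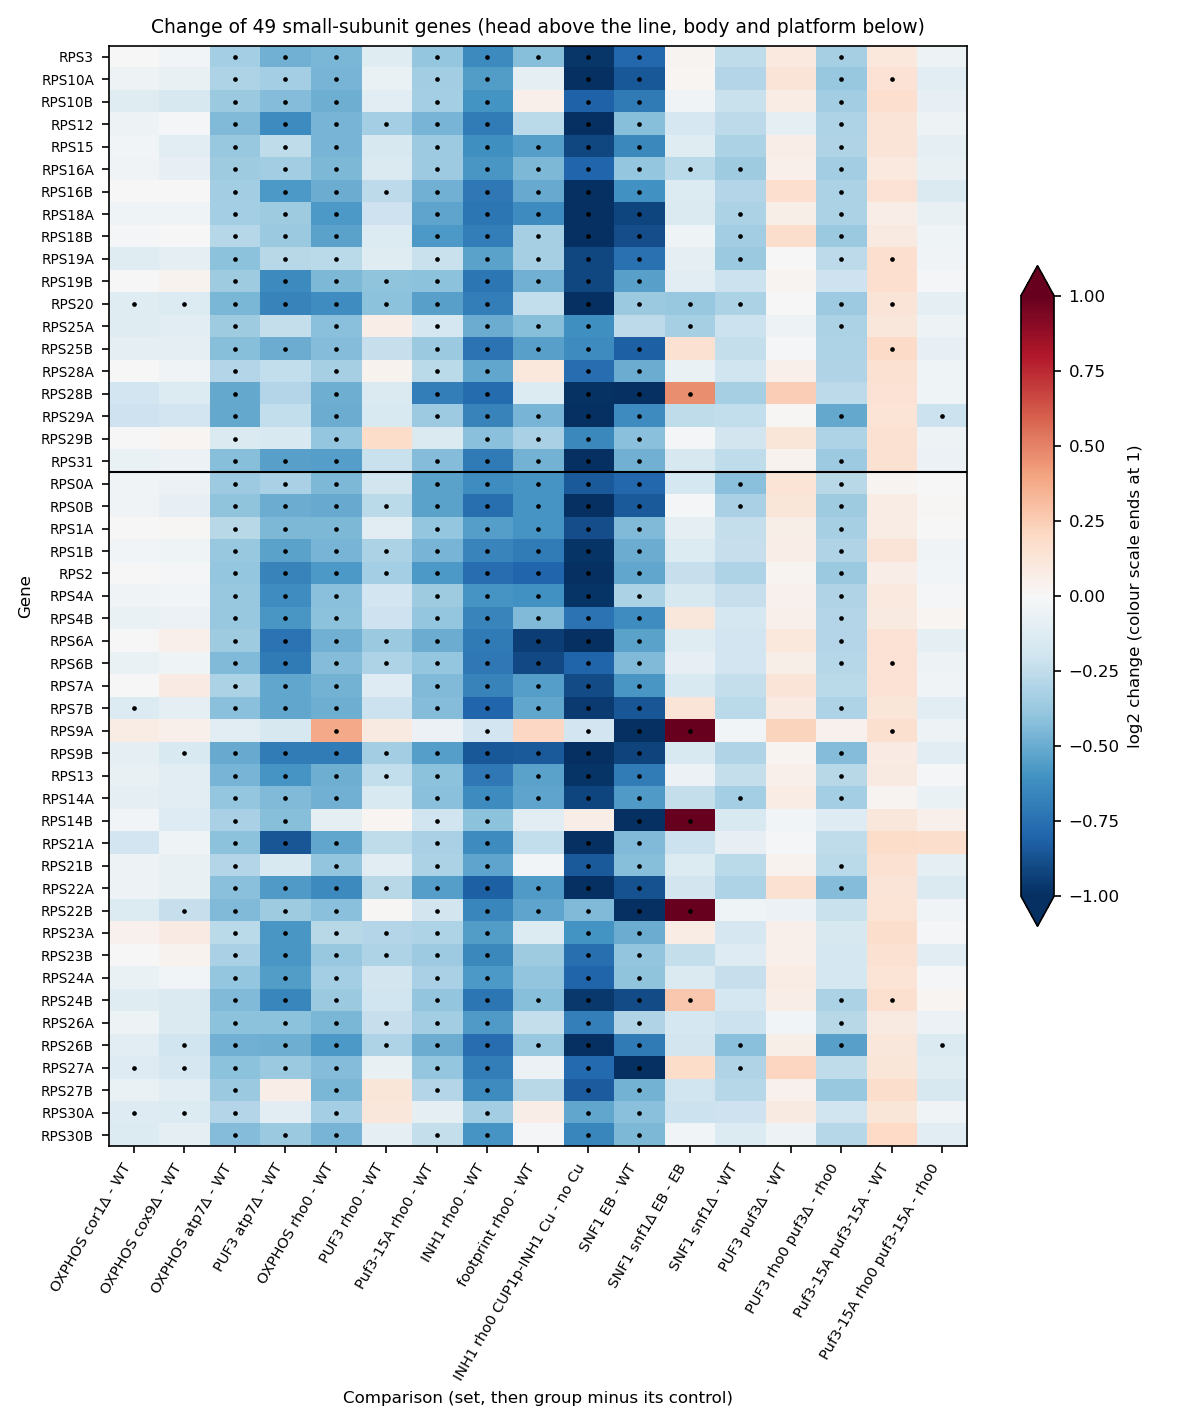
Log2 change of 49 of the 56 genes (rows, head proteins above the line) in the main comparisons, after rescaling within each set (rho0 is r0 and Δ is D in the labels), as the group named first minus its control, with a dot where limma called the change. Nearly all changes of r0 and atp7D are negative, changes of cox9D and cor1D lie near 0, and the widest spread among members is seen with EB and with copper.

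The RPS9 pair stood apart from this fall. RPS9A was the 1 gene that rose in r0, with 968, 935 and 923 RPKM, against 620.0, 697 and 755 RPKM (lowest, median, highest) in WT, a log2 change of 0.38 (SE 0.08, limma adjusted p = 0.000828). RPS9B fell more than any other member, with 1988, 2123 and 2110.0 RPKM in r0, against 3133, 3196 and 3347 RPKM in WT, a change of -0.70 (SE 0.04). All r0 libraries lay above all WT libraries for RPS9A and below them for RPS9B, and the RPS9 protein (uS4) takes part in decoding accuracy. The A gene gave 31.3% ± 1.30 of the pair in r0 (SD, n = 3) and 17.7% ± 1.51 in WT (SD, n = 6). The log2 ratio of A over B rose by 1.08 (SE 0.07, limma adjusted p = 2.49e-10 over all 61 A and B pairs of the genome). WT libraries 4 to 6 had higher values than libraries 1 to 3 for 18 members and lower values for 6, RPS9A among the 18. The share of all genes with such a split was not counted, so these numbers are not read as a trait of the members. The r0 values of RPS9A lay above both trios.

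The RPS14 and RPS22 pairs moved the other way, towards B. RPS14A had 2442, 2454 and 2511 RPKM in r0, against 3163, 3301 and 3429 RPKM in WT, and RPS14B had 468, 496 and 505 RPKM in r0, against 457, 496 and 543 RPKM in WT. RPS14B was the 1 member not called in either direction (-0.09, limma adjusted p = 0.13), its groups overlapped, and the A over B ratio fell by 0.39 (SE 0.05). RPS22A had 1663, 1723 and 1773 RPKM in r0, against 2482, 2533 and 2661 RPKM in WT, and RPS22B had 504, 501 and 476 RPKM in r0, against 604, 627 and 664 RPKM in WT. Both genes were lower in every r0 library, and the ratio fell by 0.22 (SE 0.04). In all, 9 of the 24 pairs changed their ratio in r0. Of all 61 A and B pairs of the genome 49.2% changed theirs, so the number of small-subunit pairs was not above that share. The 61 pairs include these 24 and pairs of large-subunit genes. The share is therefore not a background apart from ribosomal protein genes, here and below.

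Other pairs with a changed ratio moved towards A, among them RPS19 by 0.18 (SE 0.05) and RPS23 by 0.10 (SE 0.03). RPS19A, of the head, had 1067, 1083 and 1061 RPKM in r0, against 1069, 1256 and 1330.0 RPKM in WT, and RPS19B had 1556, 1651 and 1615 RPKM in r0, against 1778, 2144 and 2211 RPKM in WT. The r0 and WT groups overlapped for RPS19A and were apart for RPS19B. RPS28A (YOR167C, chromosome XV, 648804 to 649007) had 1970.0, 2051 and 2088 RPKM in r0, against 2344, 2465 and 2509 RPKM in WT. RPS28B (YLR264W, chromosome XII, 673131 to 673334), which is autoregulated through mRNA decay, had 900.1, 949 and 973 RPKM in r0, against 1132, 1260.0 and 1361 RPKM in WT. Both groups were apart, but the call of the RPS28 ratio (0.15, SE 0.06, limma adjusted p = 0.038) was lost without any 1 of the r0 libraries or without WT library 2 or 3. RPS30A had 2661, 2735 and 2834 RPKM in r0, against 3213, 3258 and 3695 RPKM in WT, and RPS30B had 1363, 1502 and 1404 RPKM in r0, against 1784, 1874 and 1948 RPKM in WT. RPS26A had 2879, 2922 and 2935 RPKM in r0, against 3546, 3848 and 3993 RPKM in WT, and RPS26B (YER131W, chromosome V, 423952 to 424311) had 1739, 1692 and 1695 RPKM in r0, against 2333, 2424 and 2530.0 RPKM in WT. RPS30 lies at the mRNA entry and RPS26 at the exit, and none of these 4 genes overlapped between groups. RPS23A, of the decoding centre, had 1742, 1742 and 1650.0 RPKM in r0, against 1786, 2022 and 2077 RPKM in WT, and RPS23B had 1651, 1734 and 1635 RPKM in r0, against 1740.0, 2137 and 2239 RPKM in WT. Both genes stayed below WT in every r0 library, by a narrow margin to the lowest WT value.

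Another 5 pairs changed their ratio in the r0 comparison of at least 2 other mRNA sets but not here. RPS1A had 1798, 1846 and 1804 RPKM in r0, against 2331, 2373 and 2406 RPKM in WT, and RPS1B had 2076, 2124 and 2055 RPKM in r0, against 2565, 2742 and 2898 RPKM in WT. RPS16A had 1514, 1565 and 1515 RPKM in r0, against 1883, 2009 and 2076 RPKM in WT, and RPS16B had 1574, 1552 and 1600.0 RPKM in r0, against 2048, 2128 and 2157 RPKM in WT. All of these r0 values lay below the WT values, and both genes of each pair fell by about the same amount. RPS25A had 1983, 2121 and 2119 RPKM in r0, against 2529, 2587 and 2919 RPKM in WT, and RPS25B had 904, 931 and 842 RPKM in r0, against 1012, 1153 and 1261 RPKM in WT. RPS29A had 1297, 1389 and 1345 RPKM in r0, against 1667, 1817 and 1945 RPKM in WT, and RPS29B had 1809, 1850.0 and 1888 RPKM in r0, against 2182, 2304 and 2475 RPKM in WT. RPS0A had 1304, 1264 and 1303 RPKM in r0, against 1626, 1677 and 1729 RPKM in WT, and RPS0B had 1526, 1547 and 1616 RPKM in r0, against 2084, 2108 and 2141 RPKM in WT. The groups of these 6 genes were apart as well, with log2 changes of -0.50 to -0.39.

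**Figure D3:**
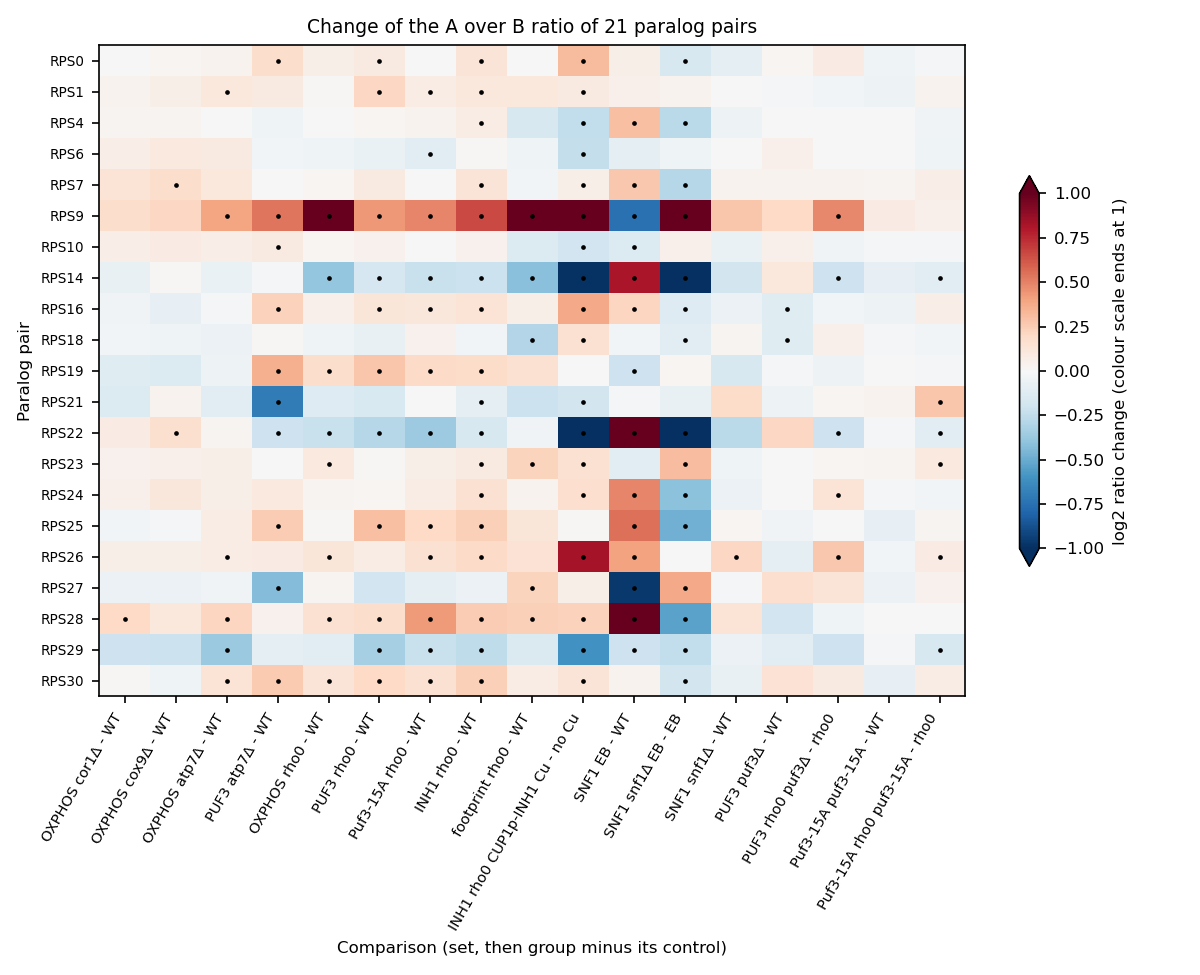
Log2 change of the A over B ratio of 21 of the 24 paralog pairs (rows) in each comparison (columns, rho0 is r0 and Δ is D in the labels), as the group named first minus its control, with a dot where limma called the change. RPS9 is red in every r0 comparison and blue with EB, and RPS14 and RPS22 are blue in r0 of the mRNA sets and red with EB.

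Members fell in atp7D as well. The member median was nearer to 0 in atp7D than in r0 of the OXPHOS set (-0.38 and -0.46) and farther from 0 in atp7D than in r0 of the PUF3 set (-0.48 and -0.19), and neither difference was tested. In atp7D 55 of 56 members fell, with a median of -0.38 and a range of -0.51 to -0.11, while 24.4% of all genes fell. RPS9A was the member not called, with 706, 688 and 667 RPKM in atp7D, inside the WT range of 620.0 to 755 RPKM. RPS28B fell most, with 1018, 900.2 and 912 RPKM in atp7D, against 1132, 1260.0 and 1361 RPKM (lowest, median, highest) in WT. Its change was -0.51 (SE 0.06, limma adjusted p = 5.22e-06), and the groups did not overlap. The ratio of 6 of 24 pairs changed in atp7D, against 27.9% of all A and B pairs, and RPS9 again moved towards A, by 0.40 (SE 0.07). The summed share of the members was 9.55% to 9.59% in atp7D and 11.1% to 11.5% in WT.

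In cox9D and cor1D most members passed no test. In cox9D 6 members fell (RPS22B, RPS26B, RPS27A, RPS9B, RPS20 and RPS30A, changes of -0.23 to -0.13), while 3.08% of all genes fell. RPS22B fell most, with 533, 548 and 532 RPKM in cox9D, against 604, 627 and 664 RPKM in WT. In cor1D 4 members fell (RPS7B, RPS30A, RPS27A and RPS20, changes of -0.14 to -0.12), while 2.71% of all genes fell. RPS20 had 4460.0, 4097 and 4161 RPKM in cor1D, against 4481, 4604 and 4739 RPKM in WT, and lay below WT in each library. RPS29A had the lowest point value in cor1D, with 1746, 1379 and 1585 RPKM, against 1667, 1817 and 1945 RPKM in WT, but its groups overlapped and it was not called (-0.21, limma adjusted p = 0.131). The highest point values were those of RPS23A in cox9D (2088, 2138 and 2072 RPKM, change 0.08) and RPS9A in cor1D (797, 691 and 697 RPKM, change 0.08), and neither was called. Ratios changed for 2 of 24 pairs in cox9D (RPS7 and RPS22, towards A; 6.56% of all A and B pairs) and for RPS28 in cor1D (11.5% of all pairs). These counts moved with the choice of WT libraries. Against WT libraries 4 to 6 alone, 27 members were called in cox9D and 24 in cor1D. Against WT libraries 1 to 3 alone, 2 were called in cor1D. The shares of all genes called in these fits were not counted, so these counts are not a result about the members. In a fit of only the groups compared limma called 0 members in cor1D.

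Other genes of the ribosome programme did not all follow the members. Of 22 small-subunit assembly factors none was called in OXPHOS r0 (median -0.07), and 22 were lower in atp7D (median -0.54). Of 25 stress genes 14 were higher in r0 and none lower (median 0.74), and 20 were higher in atp7D (median 0.97). Of 18 regulators of ribosomal protein genes 7 were lower and 2 higher in r0. HMO1, RAP1 and FHL1, which activate these genes, changed by -0.45, -0.27 and -0.17 in r0. The corepressor gene CRF1 and the coactivator gene IFH1 changed by 0.47 and 0.36. ASC1 and STM1, which encode proteins bound to the small subunit, fell by 0.39 and 0.54 on the log2 scale.

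The fall in r0 recurred in the other mRNA sets, each with its own controls. In the Puf3-15A set 53 of 56 members fell (median -0.38), while 26.2% of all genes fell. In the INH1 set 56 of 56 fell (median -0.66), while 35.6% of all genes fell, and there the mating type markers (2070.0 to 2160.0 RPKM in r0, 20.3 to 27.2 RPKM in WT) cannot be told apart from the genotype. In the PUF3 set 17 of 56 fell (median -0.19), while 17.8% of all genes fell, and 32 were called without rescaling of the libraries. Limma called 0 members there when only r0 and WT were fitted. RPS20 fell most in PUF3 r0, with 4383, 3903 and 3943 RPKM, against 5961, 5149 and 5255 RPKM in WT (-0.41, SE 0.09, limma adjusted p = 0.00223). RPS29B had the highest point value, with 2691, 2786 and 2790.0 RPKM in r0, against 2982, 2220.0 and 2225 RPKM in WT, and was not called. The groups were apart for RPS20 and overlapped for RPS29B. WT library 1 and r0 library 1 of that set stood apart from their groups (SD of the deviations from the group mean 0.268 and 0.280, against 0.130 to 0.193 in the others). RPS9B of that set changed by -0.35 in r0, and by -0.19 without WT library 1. Of the 56 members 17 were lower in r0 in 4 sets, 35 in 3 sets, 3 in 2 sets (RPS14B, RPS29B and RPS30A) and 1, RPS9A, in 1 set. Of the 6633 genes tested in all 4 sets 9.39% were lower in 4 sets, 9.63% in 3, 11.2% in 2 and 15.6% in 1. Across the 56 members the log2 changes of any 2 sets had a Pearson r of 0.49 to 0.81, and across the 24 pair ratios an r of 0.67 to 0.89. These are descriptions over genes, which are not independent replicates, and genes of a pair share sequence.

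RPS9 had its ratio called towards A, and RPS14 and RPS22 theirs towards B, in each of those sets. In INH1 r0 the ratio of 18 of 24 pairs changed (68.9% of all A and B pairs), in Puf3-15A r0 14 (63.9%) and in PUF3 r0 13 (54.1%). The ratio was called in 4 of 4 sets for 7 of 24 pairs, against 31.1% of all A and B pairs, and RPS9, RPS14, RPS19, RPS22, RPS28 and RPS30 were among them. RPS9 moved towards A by 0.66 (SE 0.03) in the INH1 set, by 0.49 (SE 0.03) in the Puf3-15A set and by 0.43 in the PUF3 set, and by 0.23 in the PUF3 set without r0 library 1. RPS9A itself had 616, 607 and 620.0 RPKM in INH1 r0, against 649, 663 and 638 RPKM in WT, and fell by 0.19 on the log2 scale. RPS9B had 1786, 1807 and 1837 RPKM in INH1 r0, against 3035, 3023 and 3007 RPKM in WT, and fell by 0.85. In the Puf3-15A set RPS9A had 714, 655 and 626 RPKM in r0, against 668, 704 and 684 RPKM in WT, and overlapped. These libraries lay on both sides of WT. In the PUF3 set RPS9A had 896, 572 and 558 RPKM in r0, against 759, 566 and 571 RPKM in WT, and overlapped. The rise of RPS9A in r0 was thus called in the OXPHOS set only among these 4, and whether the sets differ in it was not tested. RPS9B had 2305, 2285 and 2171 RPKM in Puf3-15A r0, against 3230.0, 3282 and 3270.0 RPKM in WT, and did not overlap. RPS14 moved towards B by 0.17 to 0.39 and RPS22 by 0.16 to 0.36 across the 4 sets. RPS25 and RPS29, which were not called in the OXPHOS set, had larger point values than RPS14 and RPS22 in the PUF3 set (0.30 and -0.34) and in the INH1 set (0.24 and -0.25), differences that were not tested. RPS28B fell most in Puf3-15A r0, with 1019, 945 and 979 RPKM, against 1456, 1605 and 1633 RPKM in WT (change -0.69, SE 0.07, limma adjusted p = 2.75e-06), and its groups were apart.

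In atp7D of the PUF3 set 47 of 56 members fell (median -0.48), while 25.2% of all genes fell, and 11 of 24 ratios changed against 45.9% of all A and B pairs. RPS21A fell most, with 1003, 947 and 944 RPKM in atp7D, against 2068, 1488 and 1435 RPKM in WT, a change of -0.85 (SE 0.15, limma adjusted p = 0.000181). WT library 1 was highest, and all atp7D libraries lay below all WT libraries. RPS27B had the highest point value, with 2025, 1927 and 2009 RPKM in atp7D, against 2177, 1599 and 1653 RPKM in WT, and was not called (0.06).

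**Figure D4:**
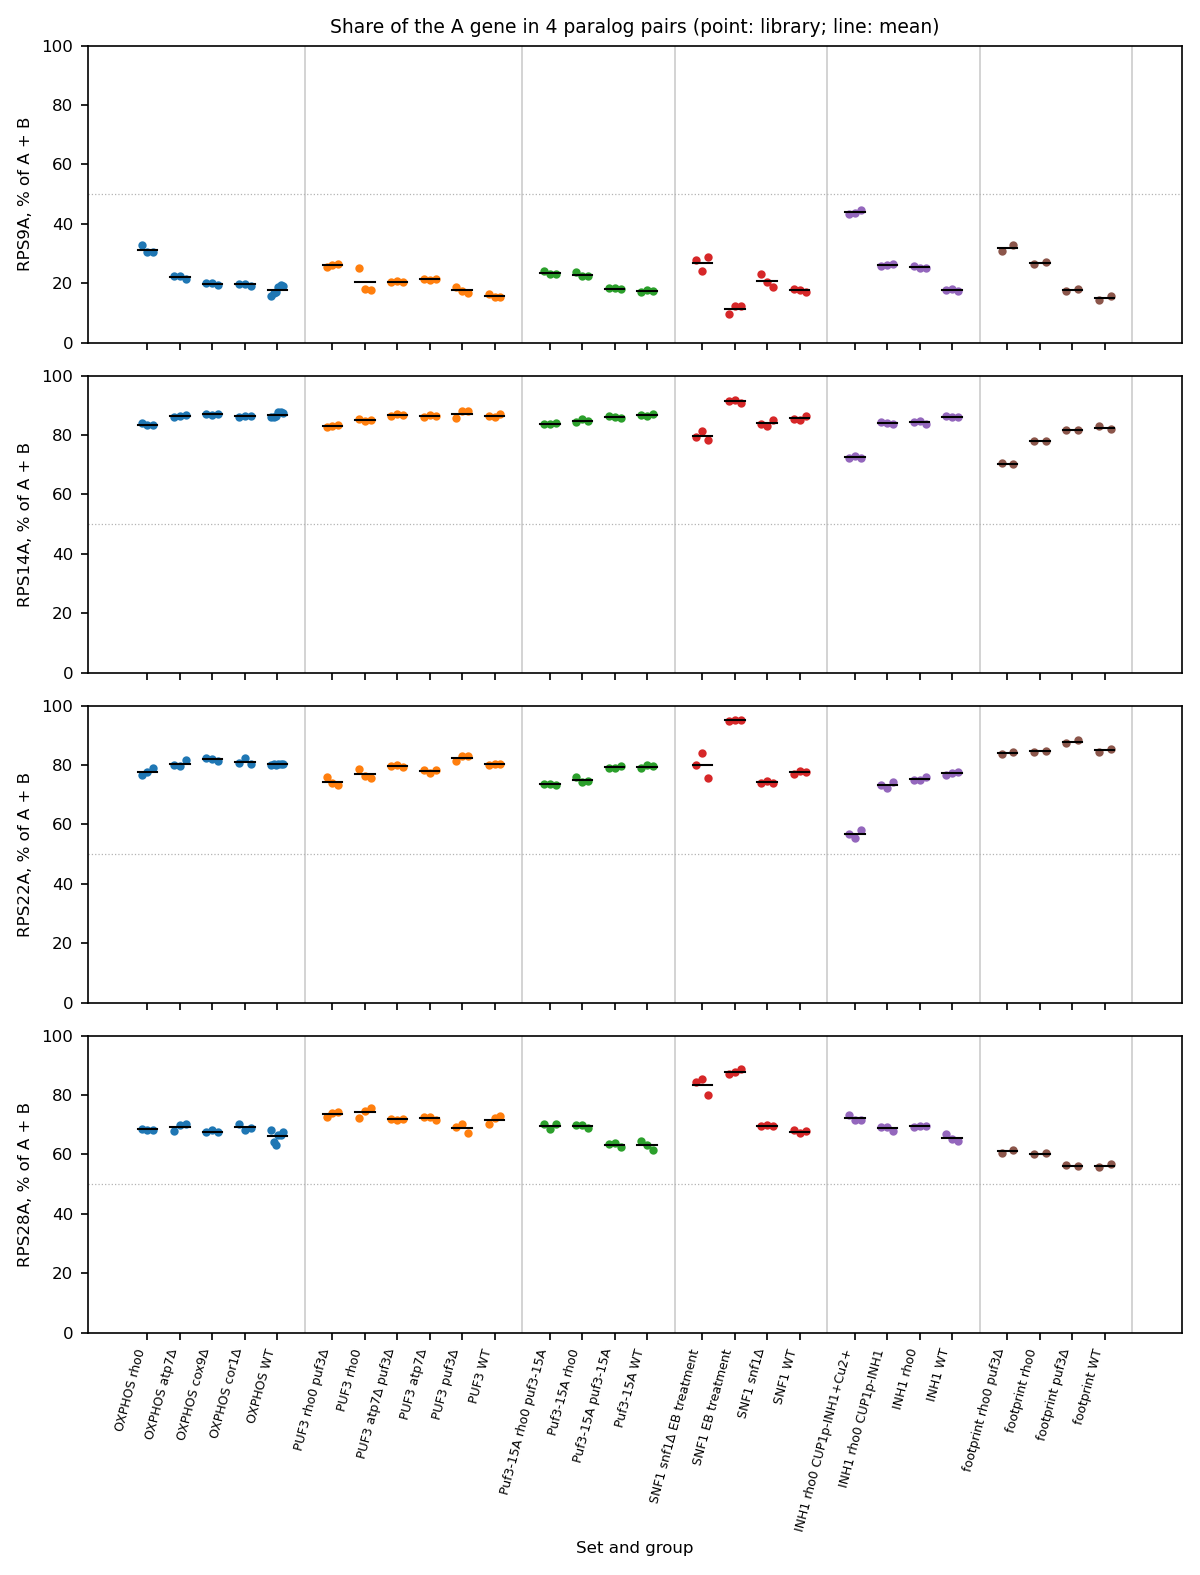
Share of the A gene in the RPKM of the RPS9, RPS14, RPS22 and RPS28 pairs (percent, vertical axis) in each library (points) with the group mean (line), by set and group (rho0 is r0 and Δ is D in the labels). RPS9A is at 31.3% in OXPHOS r0, 17.7% in OXPHOS WT, 43.9% with copper and 11.4% with EB.

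Ethidium bromide gave the largest changes of single members. In EB-treated cells 55 of 56 members were called lower than in WT (median -0.57), while 37% of all genes were called lower. RPS22B had 57.2, 58.2 and 72.9 RPKM with EB, against 678, 652 and 688 RPKM in WT, a change of -3.34 (SE 0.14, limma adjusted p = 6.45e-10). RPS28B had 239, 223 and 266 RPKM with EB, against 1258, 1258 and 1202 RPKM in WT, a change of -2.29 (SE 0.13). RPS9A had 141, 211 and 236 RPKM with EB, against 656, 643 and 628 RPKM in WT, a change of -1.67 (SE 0.14). These minor or autoregulated genes fell much further than their paralogs, and no EB library reached a WT library. RPS27A had 337, 374 and 439.6 RPKM with EB, against 1063, 1073 and 1103 RPKM in WT (-1.43, SE 0.09). RPS14B had 158, 163 and 209.8 RPKM with EB, against 488, 495 and 459 RPKM in WT (-1.38, SE 0.10). RPS25A, the member not called, had 2066, 2140.0 and 2596 RPKM with EB, against 2884, 2815 and 2828 RPKM in WT (-0.26, limma adjusted p = 0.0595).

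The paralogs of these genes fell less. RPS22A had 1064, 1165 and 1444 RPKM with EB, against 2273, 2326 and 2384 RPKM in WT (-0.87). RPS9B had 1334, 1492 and 1701 RPKM with EB, against 2963, 3000.0 and 3032 RPKM in WT (-0.93). RPS14A had 1675, 1842 and 2042 RPKM with EB, against 2877, 2798 and 2916 RPKM in WT (-0.56). EB and WT libraries were apart for all 3 genes. RPS28A had 1621, 1599 and 2076 RPKM with EB, against 2682, 2568 and 2533 RPKM in WT (-0.50). The A over B ratio changed for 16 of 24 pairs, against 72.1% of all A and B pairs. RPS22 moved towards A by 2.47 (SE 0.14), RPS28 by 1.79 (SE 0.11) and RPS14 by 0.81 (SE 0.08), while RPS9 and RPS27 moved towards B by 0.74 (SE 0.13) and 0.96 (SE 0.09). For RPS9, RPS14 and RPS22 these directions are opposite to those in r0 of the other mRNA sets. The RPS22 total was 1287 ± 205 RPKM with EB and 3000 ± 63.8 RPKM in WT (SD, n = 3). With EB the summed RPKM per protein was spread 4.58-fold, between 1172 RPKM for RPS6 and 5367 RPKM for RPS26. The genes were spread 68.3-fold, with RPS22B lowest. Of the 81 large-subunit genes 74 were lower with EB (median -0.60). EB cells also had lower values of 21 of 22 assembly factors (median -1.999) and higher values of 24 of 25 stress genes (median 3.21). The sum of the a cell markers was 1173 to 1348 RPKM with EB and 2257 to 2455 RPKM in WT, and its part in the result was not tested. Loss of mitochondrial DNA and the drug itself cannot be told apart in this set.

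**Figure D5:**
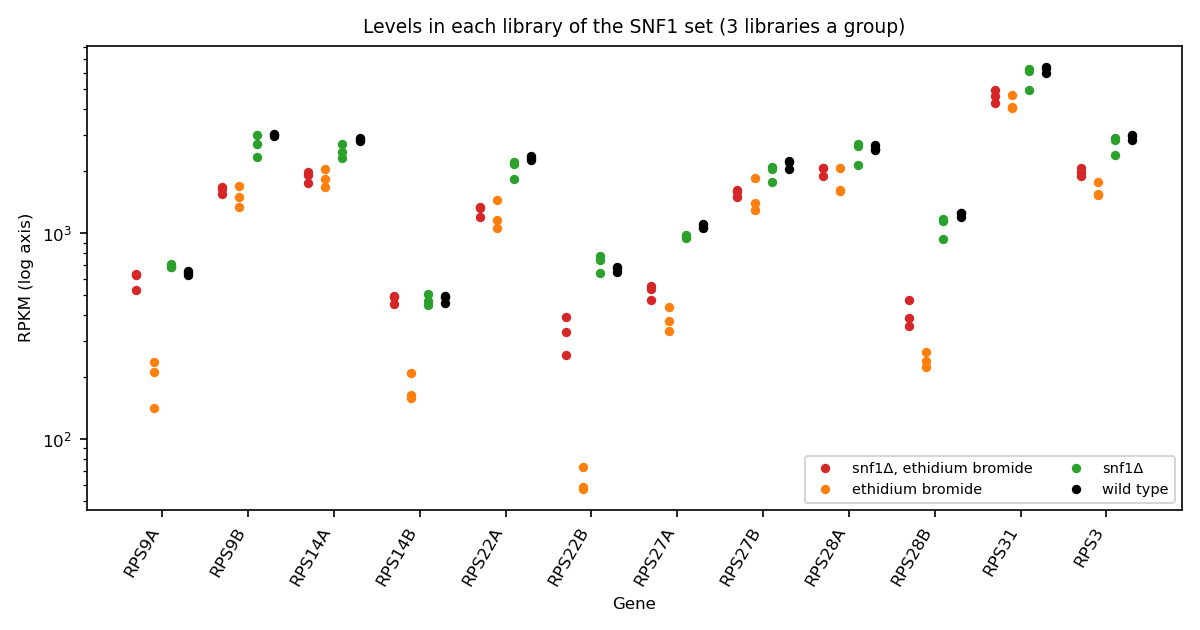
RPKM (log axis) of 12 small-subunit genes in each library of the SNF1 set (points), for snf1D with EB, EB, snf1D and WT. RPS22B lies between 57.2 and 72.9 RPKM with EB and between 255 and 390.2 RPKM in snf1D with EB, and RPS9A and RPS14B show the same order.

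Without SNF1 RPS22B, RPS9A, RPS14B and RPS28B were higher under EB, whereas RPS27A was not called. In snf1D with EB, set against EB alone, 5 members were higher (RPS22B, RPS9A, RPS14B, RPS28B and RPS24B) and 3 lower (RPS20, RPS25A and RPS16A), with a median of -0.12, while 29.4% of all genes were higher and 31.6% lower. RPS22B had 329, 255 and 390.2 RPKM in snf1D with EB, against 57.2, 58.2 and 72.9 RPKM with EB (2.08, SE 0.14, limma adjusted p = 1.17e-07). RPS9A had 637, 529 and 629 RPKM in snf1D with EB, against 141, 211 and 236 RPKM with EB (1.37, SE 0.14). RPS14B had 498, 454 and 489.7 RPKM in snf1D with EB, against 158, 163 and 209.8 RPKM with EB (1.18, SE 0.10). All libraries of snf1D with EB lay above all EB libraries for these genes. RPS28B had 387, 355 and 475 RPKM in snf1D with EB, against 239, 223 and 266 RPKM with EB (0.47, SE 0.13, limma adjusted p = 0.0074). RPS20 fell, with 3701, 3813 and 3638 RPKM in snf1D with EB, against 3913, 3894 and 4239 RPKM with EB (-0.38, limma adjusted p = 0.0076). Ratios changed for 17 of 24 pairs, against 72.1% of all A and B pairs, with RPS22 by -2.26 (SE 0.14), RPS14 by -1.41 (SE 0.08) and RPS9 by 1.52 (SE 0.13). Assembly factors were higher for 20 of 22 genes (median 1.24), and stress genes were lower for 22 of 25 (median -1.59). Without rescaling of the libraries the median of all genes moved by 0.25, the member median was 0.15, and 19 members were called higher and 0 lower, in place of 5 higher and 3 lower. RPS20 was then at -0.11, RPS25A at -0.061 and RPS16A at 0.0020 on the log2 scale. The a cell marker sum was 36.6 to 42.3 RPKM in snf1D with EB and 1173 to 1348 RPKM with EB, so genotype and marker difference cannot be told apart.

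In the absence of EB 11 members fell in snf1D against WT (median -0.25), while 16.1% of all genes fell, and RPS26 was the 1 pair of 24 with a changed ratio, against 11.5% of all A and B pairs. RPS0A fell most, with 1144, 1192 and 1289 RPKM in snf1D, against 1463, 1456 and 1475 RPKM in WT (-0.42, SE 0.10, limma adjusted p = 0.00698). The groups did not overlap. The count of called members was 31 without snf1D library 3, 3 without rescaling and 6 in a fit of only the groups compared. Shares of all genes were not counted in these fits. Without rescaling the member median was -0.11 and the median of all genes 0.12. The a cell marker sum was 22.9 to 42.1 RPKM in snf1D and 2257 to 2455 RPKM in WT. Set against snf1D, snf1D with EB had 47 of 56 members lower (median -0.45), while 33.2% of all genes fell, and 13 of 24 ratios changed against 55.7% of all A and B pairs. RPS22B changed by -1.23 and RPS28B by -1.485 on the log2 scale in that comparison. The change of RPS9A was -0.28 (limma adjusted p = 0.112). The effect of EB differed between snf1D and SNF1 cells by an interaction test for 7 members, all positive, while 23.1% of all genes had a positive interaction, and for 17 of 24 pairs, against 67.2% of all A and B pairs. The count was 23 members, all positive, without rescaling of the libraries. RPS22B had the largest interaction, 2.12, and RPS9A and RPS14B had 1.39 and 1.33.

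In the MIG1 set 1 member fell in snf1D mig1D with EB, set against snf1D with EB, while 15% of all genes fell. RPS14B had 281, 276 and 260.5 RPKM in snf1D mig1D with EB, against 409, 428 and 449 RPKM in snf1D with EB, a change of -0.58 (SE 0.07, limma adjusted p = 0.00131). With the replicate number as a block, which treats same-numbered libraries as pairs, 3 members were lower. RPS14A had 1598, 1329 and 1676 RPKM in snf1D mig1D with EB, against 1391, 1512 and 1482 RPKM in snf1D with EB, and overlapped. The RPS14 ratio rose by 0.72 (SE 0.10, limma adjusted p = 0.0103), the 1 pair of 24 called, against 8.2% of all A and B pairs. Without snf1D EB replicate 1 the ratio change was 0.71 with a limma adjusted p of 0.0575. RPS9A (264, 294 and 284 RPKM in snf1D mig1D with EB, against 314, 344 and 413 RPKM in snf1D with EB) and RPS22B (196, 218 and 256 RPKM in snf1D mig1D with EB, against 274, 260.2 and 360.2 RPKM in snf1D with EB) were lower in the point values and were not called (limma adjusted p = 0.0557 and 0.0574). The RPS9A and RPS22B libraries of the snf1D mig1D group were below those of snf1D.

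No member was called for loss of PUF3 in cells with mitochondrial DNA. In puf3D 0 of 56 members were called (limma, median 0.06), while 15.6% of all genes were, and RPS16 and RPS18 (-0.12 each) were the 2 pairs called of 24, against 6.56% of all A and B pairs. RPS28B had the highest change in puf3D, with 1208, 1075 and 1140.0 RPKM, against 1312, 881 and 853 RPKM in WT, and RPS12 the lowest, with 4164, 3685 and 3714 RPKM, against 4862, 4039 and 3934 RPKM in WT. Both overlapped WT, whose library 1 was the highest. No member reached an unadjusted p under 0.05 (0 of 56), but without WT library 1 the test called 37 members, each higher in puf3D, so 1 library decides this count. The share of all genes called in that fit was not counted. In atp7D puf3D, set against atp7D, limma called 0 of 56 members and 0 of 24 pairs, with 0 members and 2 pairs at an unadjusted p under 0.05, while 2.23% of all genes were called.

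In r0 cells, loss of PUF3 was accompanied by lower values. In r0 puf3D, set against r0, 37 of 56 members fell (median -0.30), while 15.5% of all genes fell. RPS26B fell most, with 1452, 1478 and 1494 RPKM in r0 puf3D, against 2012, 2099 and 2137 RPKM in r0 (-0.54, SE 0.08, limma adjusted p = 0.000154). RPS9B had 1977, 2027 and 2014 RPKM in r0 puf3D, against 2680.0, 2591 and 2600.0 RPKM in r0 (-0.43, SE 0.10). RPS9A had 676, 712 and 724 RPKM in r0 puf3D, against 896, 572 and 558 RPKM in r0, and overlapped. For RPS26B and RPS9B the groups were apart. The ratio changed for 5 of 24 pairs, against 19.7% of all A and B pairs: RPS9, RPS26 and RPS24 towards A, and RPS14 and RPS22 towards B. By an interaction test the effect of puf3D differed between r0 cells and cells with mitochondrial DNA for 31 members (all negative, median -0.38), while 19.8% of all genes had a negative interaction, and for 5 pairs, against 21.3% of all A and B pairs. The count was 53 without WT library 1 and 10 without WT library 2 or 3, and 8 in a fit of only the groups compared. The interaction with atp7D gave 0 members and 0 pairs (limma, with 0 members and 3 pairs at an unadjusted p under 0.05), while 7.44% of all genes were called, and it gave 10 members without WT library 1. The summed share of the members was 8.71% to 8.92% in r0 puf3D and 10.2% to 10.4% in r0.

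The puf3-15A allele alone gave small rises. In puf3-15A 9 of 56 members were called higher (0.13 to 0.20, median of all members 0.13), while 6.33% of all genes rose. At an unadjusted limma p under 0.05 there were 50 members, all higher. The share of all genes at that unadjusted threshold was not counted. Limma called 0 of 24 pairs, against 1.64% of all A and B pairs, with 4 pairs at an unadjusted p under 0.05. RPS9A had 725, 782 and 737 RPKM in puf3-15A, against 668, 704 and 684 RPKM in WT (0.16, limma adjusted p = 0.0407), and its groups were apart. RPS30B had the highest point change, with 2255, 2848 and 2456 RPKM in puf3-15A, against 2187, 2331 and 2195 RPKM in WT, and was not called. RPS14A had the lowest, with 3368, 3476 and 3471 RPKM in puf3-15A, against 3496, 3456 and 3420.0 RPKM in WT. The count of called members was 47 without puf3-15A library 1, 1 without rescaling and 0 in a fit of only the groups compared. Shares of all genes were not counted in these fits either. In r0 puf3-15A, set against r0, 2 members fell (RPS29A and RPS26B), while 8.74% of all genes fell, and 6 of 24 ratios changed, against 24.6% of all A and B pairs. RPS29A had 1624, 1596 and 1706 RPKM in r0 puf3-15A, against 2055, 2003 and 1842 RPKM in r0 (-0.21, limma adjusted p = 0.0327). RPS26B had 1837, 1822 and 1857 RPKM in r0 puf3-15A, against 2190.0, 2119 and 1987 RPKM in r0 (-0.14, limma adjusted p = 0.0351). RPS21A had the highest point value, with 1357, 1295 and 1345 RPKM in r0 puf3-15A, against 1272, 1157 and 1223 RPKM in r0 (0.18, limma adjusted p = 0.102). The interaction was negative for 21 members, while 9.31% of all genes had a negative one, and 2 pairs changed, against 13.1% of all A and B pairs. For RPS29A and RPS26B every r0 puf3-15A library lay below every r0 library.

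Copper-treated r0 CUP1p-INH1 cells had the lowest summed share of the members among the groups. In r0 CUP1p-INH1 without copper, 29 of 56 members were lower than in r0 by small amounts (median -0.08), while 7.9% of all genes fell, and 1 pair of 24 changed (RPS22, -0.16; 4.92% of all A and B pairs). RPS19B fell most, with 1250.0, 1307 and 1295 RPKM in r0 CUP1p-INH1, against 1366, 1400.0 and 1407 RPKM in r0 (-0.12, SE 0.02, limma adjusted p = 0.00542), and its groups did not overlap. With copper, set against the same strain without it, 55 of 56 members fell (median -0.91), while 36.8% of all genes fell. RPS26B fell most, with 624, 633 and 608 RPKM with copper, against 1715, 1698 and 1682 RPKM without (-1.52, SE 0.02, limma adjusted p = 2.64e-14). RPS22A had 554, 533 and 567 RPKM with copper, against 1465, 1485 and 1505 RPKM without (-1.50, SE 0.02). RPS9B had 706, 699.8 and 715 RPKM with copper, against 1689, 1730.0 and 1724 RPKM without (-1.35, SE 0.02). The copper and no-copper groups were apart for each of these genes. RPS14B was the 1 member not called, with 486, 489.6 and 476 RPKM with copper, against 428, 441 and 448 RPKM without. RPS22B had 419.9, 428 and 408 RPKM with copper, against 531, 574 and 523 RPKM without (-0.44, SE 0.03), and RPS9A had 539, 544 and 578 RPKM with copper, against 582, 612 and 616 RPKM without (-0.19, SE 0.03). RPS14B lay above the no-copper libraries in every copper library. Ratios changed for 21 of 24 pairs, against 85.2% of all A and B pairs. RPS9 moved towards A by 1.15 (SE 0.03) and RPS26 by 0.84 (SE 0.03), and RPS22, RPS14 and RPS29 moved towards B by 1.06 (SE 0.04), 0.99 (SE 0.03) and 0.60 (SE 0.03). The A gene gave 43.9% ± 0.727 of RPS9 with copper and 26.0% ± 0.353 without (SD, n = 3). The RPS9 total was 1261 ± 27.9 RPKM with copper and 2317 ± 40.4 RPKM without. The summed share of the members was 4.80% to 4.89% with copper and 8.35% to 8.47% without. Of the 81 large-subunit genes 79 were lower with copper (median -0.89). Stress genes were higher for 22 of 25 (median 1.18). Assembly factors were lower for 15 of 22. The a cell marker sum was 1100 to 1165 RPKM with copper and 1976 to 2088 RPKM without, and its part in the result was not tested.

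Ribosome footprints were lower in r0 as well. In footprints of r0 35 of 56 members fell against WT (median -0.42), while 12.1% of all genes fell. RPS6A fell most, with 327 and 342 RPKM in r0, against 529.5 and 658 RPKM in WT (-0.94, SE 0.13, limma adjusted p = 0.00296). The values of the RPS6 pair are uncertain, as stated above. RPS9B had 2900.0 and 2633 RPKM in r0, against 4560.0 and 4530.0 RPKM in WT (-0.84, SE 0.09). RPS9A had 1050.0 and 976 RPKM in r0, against 771 and 839 RPKM in WT (0.21, limma adjusted p = 0.141). The r0 footprints of RPS6A and RPS9B lay below WT, and those of RPS9A above. RPS14A had 3151 and 2912 RPKM in r0, against 3772 and 4248 RPKM in WT, and RPS14B had 897 and 818 RPKM in r0, against 769.7 and 937 RPKM in WT. Ratios changed for 7 of 24 pairs, against 34.4% of all A and B pairs, with RPS9 towards A by 1.05 (SE 0.07) and RPS14 towards B by 0.41 (SE 0.06). The a cell marker sum was 2169 to 2405 RPKM in r0 and 16.8 to 32.4 RPKM in WT. In footprints of puf3D 0 of 56 members were called (limma, 5 at an unadjusted p under 0.05), while 1.34% of all genes were, and the RPS22 ratio rose by 0.36 (limma adjusted p = 0.0218; 1.64% of all A and B pairs). RPS22B had 871 and 756 RPKM in puf3D, against 1022 and 976 RPKM in WT (-0.31, limma adjusted p = 0.262). In r0 puf3D, set against r0, 11 members fell (median -0.25), while 3.13% of all genes fell, and 4 of 24 ratios changed, against 19.7% of all A and B pairs. RPS23B fell most, with 1603 and 1374 RPKM in r0 puf3D, against 2232 and 2015 RPKM in r0 (-0.68, SE 0.13, limma adjusted p = 0.0366). RPS30A had the highest point value, with 2257 and 2523 RPKM in r0 puf3D, against 2111 and 1654 RPKM in r0 (0.19, limma adjusted p = 0.528). Both r0 puf3D libraries lay below r0 for RPS23B and above it for RPS30A. Leaving out any 1 of the libraries left 0 to 6 members.

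Most members had a footprint over mRNA ratio above that of the median gene. In r0 the median log2 ratio of footprint over mRNA RPKM was 0.28 over the members and -0.52 over all genes, and in WT it was 0.39 over the members and -0.66 over all genes. Of the 56 members 48 in r0 and 50 in WT lay above the median of all genes. In WT RPS27B was highest at 1.77. These ratios set the footprint set against the PUF3 set, which were normalized separately. The sum of the a cell markers was also far lower in footprint WT than in mRNA WT of the PUF3 set. In the WT ratios the assay and this marker difference cannot be told apart. In the changes of the ratio in r0 or puf3D against WT, the genotype and the marker difference cannot be told apart either. The change of the ratio in r0 was called for 1 member, RPS6B (-0.59, limma adjusted p = 0.037), while 3.88% of all genes fell, and for 4 of 24 pairs, against 19.7% of all A and B pairs. RPS6 is among the pairs whose read numbers are uncertain. The member count was 0 with separate spreads for each assay and 0 in a fit of only the groups compared. Leaving out 1 library gave 0 to 30 members, 30 without PUF3 WT library 1. RPS9 was one of the pairs, with a change of 0.61 (SE 0.18, limma adjusted p = 0.0215), and its call was lost without any 1 of 7 libraries (limma adjusted p of 0.0516 to 0.098). In puf3D limma called 0 members and 0 pairs (0 members and 1 pair at an unadjusted p under 0.05), while 0.702% of all genes were called. In r0 puf3D against r0 it called 0 members (4 at an unadjusted p under 0.05), while 7.2% of all genes were called, and 5 of 24 pairs, against 13.1% of all A and B pairs.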

How the data were processed

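The deposited files hold RPKM values per feature, 1 file per library, which the authors computed from polyA RNA or footprint reads. Genome build R64 and the tools featureCounts, STAR (2.6.1a), CASAVA (1.9) and edgeR (3.28.1) are listed, without their roles, per the submitters' processing notes. Whole reads were recovered from the RPKM values, within a tolerance of 0.05, for 100% of member values. The length of each member was searched as the 1 that made most values whole, so the 100% is not an independent check. The reads were used only to state depth, and the lengths only to mark introns. Of 7126 identifiers 6048 matched a RefSeq R64 locus tag, the 56 members included. Some members are not reported here by name and were left out of the figures, while counts and medians cover all 56. Members, lists and tests were chosen with earlier results of these data known.

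Each of the 7 sets was fitted by itself with limma 3.58.1 in R 4.3.3, with a variance trend, on log2(RPKM + 1), so changes of low genes are understated. A trimmed-mean factor per library, dropping 30% of genes by log ratio and 5% by level, put the libraries of a set on 1 scale. Genes needed 1 RPKM in at least 3 mRNA or 2 footprint libraries. Benjamini-Hochberg adjustment ran over all genes, or over 61 A and B pairs for log2((A + 1)/(B + 1)), with a threshold of 0.05. Translational efficiency was the interaction of assay and genotype over the footprint and PUF3 sets. RPKM values are printed as deposited and log2 changes after rescaling. The scripts were checked on simulated data. Values were tabulated with Python 3.11.15, numpy 2.4.6 and pandas 2.3.3 and drawn with matplotlib 3.10.9.

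Library values are given for single-copy genes, for pairs called in the r0 comparison of 2 or more mRNA sets, for members called against the direction of most, and for the largest rise and fall of each main comparison. For the pairs and single-copy genes this was done in full in the OXPHOS set and for the leading genes elsewhere. The design text calls the replicates biological without saying that they are separate cultures, so p-values measure the spread between these samples, which may be technical. Within groups the lowest correlation of libraries was 0.9764, and no files were identical. Deviations of same-numbered libraries correlated at 0.129 to 0.428 in the MIG1 set. In the other sets the median correlation was -0.0098 to 0.049, with single values up to 0.361 in the PUF3 set and 0.383 in the SNF1 set. Alternatives were other rescaling, filters, pseudocounts, groups in the fit, WT libraries, the replicate block and leaving out libraries, and the joint removal of the PUF3 libraries numbered 1 was chosen after seeing the data.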

Additional observations from a re-analysis of the deposited data

Results flagged for a closer look

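In WT of the OXPHOS set, the 1 group of 6 libraries, 10 of 80 values (56 genes and 24 shares of A) had a lowest or highest library far from the others, where chance flags about 1 in 20. The gap to the nearest library, divided by the range of the group, was among others 0.84 for RPS30A, 0.753 for RPS24A, 0.741 for RPS19B, 0.69 for RPS12, 0.675 for RPS6A, 0.664 for RPS25A, 0.636 for RPS10B and 0.703 for the A share of RPS10, in each case through library 1. It was 0.687 for RPS18A through library 6. RPS30A had 3695 RPKM in library 1 and 3213 to 3290 RPKM in the others, and RPS19B had 1778 RPKM in library 1 and 2099 to 2211 RPKM in the others.

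Effects that differed between backgrounds by an interaction test in limma (Benjamini-Hochberg adjusted p under 0.05) were as follows. The effect of puf3D differed between r0 and cells with mitochondrial DNA for 31 of 56 genes, all negative (19.8% of all genes had a negative interaction), and for 5 of 24 pairs, near the 21.3% of all A and B pairs. The differences of log2 change were -0.60 for RPS26B, -0.58 for RPS22A, -0.52 for RPS29A, -0.46 for RPS9B, -0.46 for RPS27A and -0.42 for RPS14A, and those of the A over B ratio were -0.31 for RPS14, -0.41 for RPS22, 0.36 for RPS26 and 0.17 for RPS18. The gene count was 53 without WT library 1, and 10 without WT library 2 or 3.

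The effect of puf3-15A differed between r0 and cells with mitochondrial DNA for 21 of 56 genes, all negative (9.31% of all genes), and for 2 of 24 pairs, below the 13.1% of all A and B pairs. The differences were -0.35 for RPS29A, -0.34 for RPS27B, -0.27 for RPS22A, -0.26 for RPS26B, -0.24 for RPS27A, -0.22 for RPS9A and -0.19 for RPS9B, and those of the ratio were 0.11 for RPS26 and -0.14 for RPS29. The gene count was 45 without puf3-15A library 1 and 3 without r0 library 1.

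The effect of snf1D differed between EB and untreated cells for 7 of 56 genes, all positive, below the 23.1% of all genes with a positive interaction, and for 17 of 24 pairs, near the 67.2% of all A and B pairs. The differences were 2.12 for RPS22B, 1.39 for RPS9A, 1.33 for RPS14B, 0.80 for RPS28B and 0.49 for RPS27A. Those of the ratio were -1.99 for RPS22, 1.24 for RPS9, -1.23 for RPS14, -0.67 for RPS28, 0.40 for RPS27, -0.20 for RPS26, -0.19 for RPS29, -0.51 for RPS25, -0.36 for RPS24, 0.35 for RPS23, -0.32 for RPS7, -0.22 for RPS4, -0.13 for RPS18 and 0.12 for RPS10. The gene count was 18 without snf1D library 3.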

How the results depend on the processing

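Under 13 settings other than leaving out 1 library, 390 of 453 counts of called genes or pairs stayed within 1.5 times, and 63 moved; 9 of 15715 single values reversed. The counts of lower members in r0 of the OXPHOS, Puf3-15A and INH1 sets, with EB and with copper, stayed within 1.5 times. The cause of the moves was not tested. Shares of all genes called were not counted under the other settings or without 1 library. Counts under them, here and above, show how the calls move and are not a result about the members.

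Without rescaling, genes called were 32 in PUF3 r0 (17 in the report), 1 in puf3-15A (9), 15 in r0 puf3-15A against r0 (2), 3 in snf1D (11), 19 in snf1D with EB against EB (8), 23 in the SNF1 interaction (7), 4 in MIG1 (1), 7 in footprints of r0 puf3D (11), and in efficiency 2 in r0 (1) and 4 in r0 puf3D (0). In snf1D with EB against EB the values then reversed for RPS29B (0.26), RPS0B (0.25), RPS10B (0.23), RPS18B (0.22), RPS13 (0.21) and RPS16A (0.00198). With median-ratio factors the genes were 4 in puf3-15A, 1 in r0 puf3-15A, 12 in its interaction and 1 in r0 puf3D efficiency. The filter at 5 RPKM gave 2 there, separate spreads gave 0 in r0 efficiency, and a pseudocount of 5 gave 4 pairs in the puf3-15A interaction (2).

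In fits of only the groups compared, genes were 0 in cor1D (4), 0 in PUF3 r0 (17), 1 in atp7D puf3D (0), 8 in the puf3D interaction with r0 (31), 0 in puf3-15A (9), 4 in r0 puf3-15A (2), 6 in snf1D (11), 0 in footprints of r0 puf3D (11), 0 in r0 efficiency (1) and 2 in r0 puf3D efficiency (0). Pairs were 0 in cor1D (1), 1 in cox9D (2), 3 in atp7D (6), 0 in puf3D (2), 2 in atp7D puf3D (0), 2 in r0 puf3D (5), 2 in the atp7D interaction (0), 5 in snf1D (1), 0 in footprints of puf3D (1) and 2 in r0 efficiency (4).

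With the replicate number as a block, genes were 2 in cor1D, 1 in cox9D, 5 in puf3-15A, 1 in r0 puf3-15A, 13 in its interaction, 3 in MIG1, 2 in r0 efficiency and 1 in r0 puf3D efficiency; pairs were 3 in cor1D, 1 in the puf3-15A interaction, 2 in footprints of puf3D, 7 in footprints of r0 puf3D and 7 in r0 efficiency. Outside the MIG1 set the deviations of same-numbered libraries correlated at -0.205 to 0.383, with set medians of -0.0098 to 0.049. Some of those libraries may therefore be paired as well.

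Against WT libraries 1 to 3 cor1D had 2 genes and 4 pairs. Against WT libraries 4 to 6 cor1D had 24 genes and 9 pairs, cox9D 27 genes and 13 pairs and atp7D 14 pairs, and ratios reversed for RPS25 in cor1D (0.13) and for RPS14 (-0.088) and RPS25 (0.14) in cox9D. Without the PUF3 libraries numbered 1, chosen after seeing the data, puf3D had 40 genes and 8 pairs, atp7D puf3D 2 pairs, the atp7D interaction 15 genes and 3 pairs and the r0 interaction 55 genes.

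Leaving out 1 library gave these ranges. Genes were 0 to 9 in cor1D, 1 to 8 in cox9D, 0 to 37 in puf3D, 16 to 37 in r0 puf3D, 10 to 53 in its interaction, 0 to 10 in the atp7D interaction, 1 to 47 in puf3-15A, 0 to 4 in r0 puf3-15A, 3 to 45 in its interaction, 3 to 31 in snf1D, 5 to 8 in snf1D with EB, 5 to 18 in the SNF1 interaction, 1 to 2 in MIG1, 17 to 28 in r0 CUP1p-INH1, 0 to 6 in footprints of r0 puf3D, 0 to 30 in r0 efficiency and 0 to 3 in r0 puf3D efficiency. Pairs were 2 to 10 in atp7D, 0 to 4 in cor1D and cox9D, 0 to 3 in puf3D, 3 to 6 in r0 puf3D, 0 to 1 in puf3-15A, 2 to 5 in r0 puf3-15A, 0 to 5 in its interaction, 0 to 2 in MIG1, 0 to 1 in r0 CUP1p-INH1, 0 to 1 in footprints of puf3D, 2 to 5 in footprints of r0 puf3D and 0 to 7 in r0 efficiency. The fewest reads behind a member value were 267 in the footprint set and 235 in the SNF1 set (counting errors of 6.12% and 6.52%).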
